A study of Mus musculus with 12 samples.

Results

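Among 12 bulk RNA-seq libraries of mouse macrophages, the 3 with the most cell cycle RNA were set beside the other 9. The 3 were picked by what was measured in them: the mean of log2 CPM, which is counts per 1000000 counts of a library, over 10 genes of the dividing cell (Mki67, Top2a, Ccna2, Ccnb1, Ccnb2, Cdk1, Aurkb, Birc5, Plk1 and Tpx2), called the cell cycle level below. They were young replicate 6, old replicate 2 and old replicate 3. The other 9 were young replicates 1 to 5 and old replicates 1, 4, 5 and 6. No label names the 3 as a group, so they are an outcome of the experiment and not a treatment, and everything that sets the 3 beside the 9 is a description without a test.

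All libraries came from bone marrow derived macrophages, cells grown out of marrow for 7 days in medium with 20 ng/mL of macrophage colony-stimulating factor (M-CSF), the growth factor that drives marrow progenitors to become macrophages and to divide. The donors were C57BL6 background mice, 8 weeks old in the young group (6 libraries) and 12 months old in the old group (6 libraries). All 12 cultures shared this medium, no library was labelled as exposed to nanoparticles or to any other agent, and the sources used here name no transgene or deletion. The labels speak of biological replicates but not of separate animals, so the spread below is that between libraries, which may be partly technical. Bone marrow cultures can hold cells at several stages, and in bulk RNA fewer cells of a type cannot be told apart from less RNA of a gene per cell.

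As background, marrow progenitors given M-CSF first divide and then leave the cell cycle as they mature into macrophages with Fc receptors, scavenger receptors and a large lysosomal compartment. Macrophages also keep a low, self-sustained type I interferon signal: a little interferon beta acts through its receptor and a complex of transcription factors on a DNA element called the ISRE, and so holds a broad set of antiviral genes at a basal level. Genes of mitosis are held down in resting cells by the DREAM complex, which binds a short promoter element called the CHR, often next to CCAAT boxes bound by NF-Y. Bone morphogenetic proteins (BMPs) act through SMAD1 and SMAD5 on Id1, Id2, Id3 and Smad6.

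The libraries held 19.3 to 25.2 M assigned counts (1 M is 1000000), and 71.3% to 72.6% of alignment records were assigned to genes. Young replicate 6 stood apart from the other young libraries. Its share of multiply aligned records was 14.2% against 12.1% to 12.6%, and it lay far out for many of the genes below, so values are given library by library. The scaling factors (TMM) of the 3 libraries, 1.04 in each, were the highest of the 12, and the others ran from 0.918 to 1.02. Macrophage genes were found in all libraries, but not all of them at an even level. Cd68, a macrophage lysosomal protein, stood at 2838, 2646 and 2490.0 CPM in the 3 libraries (in the order young 6, old 2, old 3, which is kept below) and at 2389 to 3426 CPM in the 9. Its difference of medians was 0.02 on the log2 scale, the 3 minus the 9, and that of Itgam, the CD11b integrin chain, was 0.00. Other macrophage genes were lower in the 3 libraries. Fcgr1 and Adgre1 lay below the 9, with differences of -1.37 and -0.57. Csf1r and Lyz2 overlapped, with young replicate 6 far below the other young libraries.

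The 10 genes of the rule show how far apart the libraries were. On log2 CPM, young replicate 6 had a cell cycle level of 7.14, old replicate 2 followed at 6.69, and old replicate 3 came next with 6.06. Just outside was young replicate 2 at 5.70, followed by young replicate 3 at 5.15, and the lowest was old replicate 4 at 3.99. Levels thus ran without a wide gap from the third to the fourth library. Mki67, which coats mitotic chromosomes, stood at 400.0, 282 and 178 CPM against 33.9 to 163 CPM with a median of 52.5 CPM in the 9. Ccnb2, a cyclin that drives entry into mitosis, stood at 115, 103 and 67.2 CPM against 9.12 to 56.1 CPM with a median of 13.9 CPM. Ranking by Mki67, Top2a and Cdk1 alone, or by lists of mitosis or DNA replication genes, put the same 3 libraries on top. These values chose the libraries and are given for orientation.

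**Figure D1:**
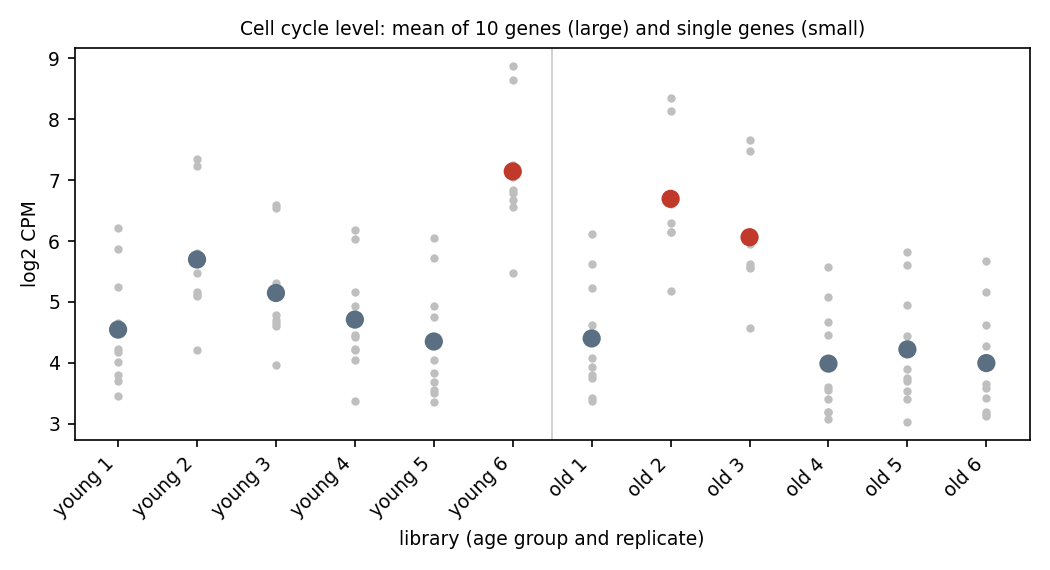
Cell cycle level of each of the 12 libraries (log2 CPM, large points, mean of 10 genes) with each gene as a small point. The 3 libraries studied (red) lie at 6.06 to 7.14, and the other 9 (grey-blue) at 3.99 to 5.70.

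The promoters of Ccnb2 and Cdk1, the catalytic partner of the mitotic cyclins, are shown, picked for holding both CHR and CCAAT letters. Many of the genes that were highest in the 3 libraries are, like these, genes of mitosis. The 250 bases before the start of each gene were read from RefSeq (GRCm38.p6), 5′ to 3′ on the gene's strand, with capitals on CHR letters (TTTGAA, or TTCAAA on the other strand) and on CCAAT boxes (CCAAT, or ATTGG on the other strand). The Ccnb2 stretch is chr9:70421555-70421804, minus strand, and the Cdk1 stretch is chr10:69352913-69353162, minus strand. 
Ccnb2: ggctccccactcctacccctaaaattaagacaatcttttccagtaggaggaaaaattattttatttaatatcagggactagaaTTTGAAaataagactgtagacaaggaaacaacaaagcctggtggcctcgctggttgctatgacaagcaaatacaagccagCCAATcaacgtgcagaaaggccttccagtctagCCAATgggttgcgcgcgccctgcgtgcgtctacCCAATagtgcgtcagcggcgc
Cdk1: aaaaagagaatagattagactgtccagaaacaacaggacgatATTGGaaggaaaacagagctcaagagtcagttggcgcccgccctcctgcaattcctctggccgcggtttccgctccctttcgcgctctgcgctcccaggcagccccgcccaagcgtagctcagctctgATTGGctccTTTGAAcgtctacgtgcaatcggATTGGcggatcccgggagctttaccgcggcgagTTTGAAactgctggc
The Ccnb2 stretch holds 1 CHR and 3 CCAAT matches, and that of Cdk1 holds 2 and 3. Of 7 promoters matched to genes of the rule, 4 hold the CHR letters and 6 a CCAAT box. Among 32851 promoters of this length, 15.99% hold the CHR letters and 33.85% a CCAAT box. For the mitosis list, 12 of 37 promoters (35 genes matched) hold the first (32.43%) and 27 of 37 the second (72.97%). In a list of interferon-stimulated genes described below, 12 of 45 promoters hold the first (26.67%) and 13 of 45 the second (28.89%). The shares with CHR letters were thus closer between these lists than the shares with a CCAAT box. A match is a description of these letters and not of a bound site.

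Across all genes, 894 of the 12620 tested (7.08%) had all 3 libraries above every one of the 9, and 697 (5.52%) had all 3 below. Outside the cell cycle lists the counts were 822 of 12529 (6.56%) and 697 (5.56%). The median difference over all genes was 0.0035 on the log2 scale. Scaling by library size alone gave 1443 above and 412 below, so the split between directions depends on the scaling. Old replicate 3, the lowest of the 3 libraries, limits these counts: without it, 1918 genes lay above and 1571 below. Without young replicate 6 they were 1071 and 826, and for the lists described below leaving it out gave 42 interferon-stimulated and 8 maturation genes below, and 7 glycolysis, 4 oxidative phosphorylation and 5 BMP target genes above. Asking instead that young replicate 6 lie beyond the other 5 young libraries and old replicates 2 and 3 beyond the other 4 old ones, each age on its own, gave 1741 genes above (13.8%) and 1506 below (11.9%).

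Genes of cell division outside the rule were higher in the 3 libraries too. In a list of mitosis genes 40 of 41 lay above the 9, with a median difference of 2.10. The 5 with the largest differences were Cdc20, Nusap1, Ube2c, Knstrn and Bub1b, regulators of the spindle and of the exit from mitosis, at 2.56 to 2.80. DNA replication genes did so less evenly: 22 of 40 lay above and none below, with a median difference of 1.05 and a range from -0.05 to 1.64. The count above was 36 without old replicate 3. Young replicate 6 was the highest of the 12 libraries for all 40 replication genes. Tyms, which makes thymidylate, and the repair gene Brca1 had differences of 1.63 and 1.62. Tk1, which salvages thymidine, stood at 125, 63.8 and 29.9 CPM against 13.2 to 24.5 CPM with a median of 20.4 CPM. Rrm2, a subunit of ribonucleotide reductase, stood at 107, 46.2 and 28.3 CPM against 9.07 to 17.9 CPM with a median of 15.2 CPM. The groups did not overlap for either gene, and young replicate 6 lay far above old replicates 2 and 3. Pcna, the replication clamp, overlapped with 481, 258 and 224 CPM against 193 to 313 CPM, and old replicates 2 and 3 lay inside the range of the 9.

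Of 16 genes for cell cycle inhibitors, 2 lay above (12.5%), 1 below (6.25%) and 13 overlapped. Over all genes 7.08% lay above and 5.52% below. Cdkn2c, which encodes the CDK4 and CDK6 inhibitor p18, was 2.7-fold higher, at 103, 96.9 and 65.5 CPM against 28.3 to 48.7 CPM with a median of 35.9 CPM. Cdkn2d, which encodes the related p19, stood at 64.4, 51.8 and 34.2 CPM against 17 to 30.6 CPM with a median of 23.8 CPM. Both inhibitors were thus higher in the libraries with more cell cycle RNA. Gadd45a, a stress-induced growth arrest gene, was lower, at 21.4, 28.1 and 34.6 CPM against 36.2 to 57.8 CPM with a median of 46.2 CPM. Cdkn1a, which encodes the p53 target p21, overlapped at 389, 244 and 228 CPM against 171 to 268 CPM.

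Outside the cell cycle the most uniform feature of the 3 libraries was low interferon-stimulated RNA. Of 47 interferon-stimulated genes tested, 40 (85.1%) had all 3 libraries below all of the 9, none lay above, and all 47 differences were negative. Background for this direction was 5.52% of all genes. The median difference over the list was -0.85, with a range from -2.27 to -0.29. Mean log2 CPM over the list was 5.26, 5.56 and 5.66 in the 3 libraries and 6.05 to 7.40 in the 9. Young replicate 5 was the highest library for 42 of the 47 genes and young replicate 6 the lowest for 36. The 7 overlapping genes were Oas3, Ifi35, Ifi47, Bst2, Dtx3l, Trim25 and Ifitm3.

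The largest differences were in classical interferon-induced genes. Ifi44, an interferon-induced cytoplasmic protein, stood at 5.9, 5.02 and 8.44 CPM against 16.2 to 65.6 CPM with a median of 28.9 CPM, 4.84-fold lower. Mx1, a gene of the dynamin-like GTPase family, stood at 11.9, 18.5 and 30.6 CPM against 41.7 to 193 CPM with a median of 79.3 CPM. No library of the 3 reached the lowest of the 9 for either gene. Ifit2 and Ifit3 belong to the family of proteins with tetratricopeptide repeats that bind viral RNA or its partners. For Ifit2 the 3 values were 43.7, 67.2 and 88.2 CPM against 136 to 552 CPM with a median of 225 CPM, 3.34-fold lower. Ifit3 stood at 57, 79.4 and 105 CPM against 167 to 744 CPM with a median of 268 CPM. Ifit3 and its neighbour Ifit3b (difference -2.02) are near-identical copies, and how reads were divided between them is uncertain. In both genes the order within the 3 was the reverse of the order of their cell cycle levels.

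Differences were smaller in other members. Rsad2, which encodes viperin, an enzyme that makes a chain-terminating nucleotide, stood at 38.4, 54.9 and 72.5 CPM against 104 to 334 CPM with a median of 160.3 CPM. Isg15, a ubiquitin-like modifier, stood at 39.9, 43.4 and 41 CPM against 63.8 to 306 CPM with a median of 102 CPM, and Ifit1 at 17.7, 27.7 and 37.4 CPM against 51.5 to 134 CPM with a median of 74.2 CPM. The 3 values of Isg15 lay close together, while those of Rsad2 and Ifit1 were lowest in young replicate 6. Rtp4, a chaperone for receptors that interferon induces, stood at 72.5, 77.8 and 79 CPM against 98.4 to 213 CPM with a median of 138 CPM. 

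**Figure D2:**
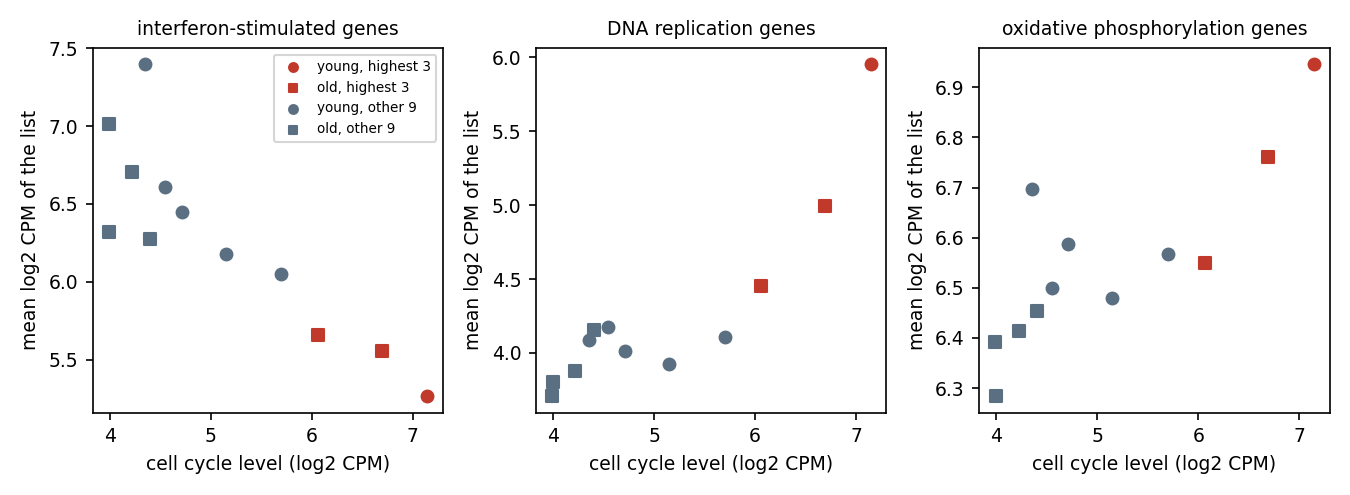
Mean log2 CPM over 3 gene lists against the cell cycle level (log2 CPM) for 12 libraries (circles young, squares old, the 3 libraries in red). The interferon-stimulated list is lower in the 3 libraries, at 5.26 to 5.66 against 6.05 to 7.40, while replication and oxidative phosphorylation are led by young replicate 6.

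The promoters of 4 of these genes are shown, again 250 bases before the start from RefSeq (GRCm38.p6), with capitals on matches to the ISRE core GAAANNGAAA (TTTCNNTTTC on the other strand). The 4 were picked among genes below the 9 whose promoter holds a match. Isg15 is at chr4:156200819-156201068, minus strand, Rsad2 at chr12:26456453-26456702, minus strand, Ifit1 at chr19:34640639-34640888, plus strand and Ifit3 at chr19:34583279-34583528, plus strand.
Isg15: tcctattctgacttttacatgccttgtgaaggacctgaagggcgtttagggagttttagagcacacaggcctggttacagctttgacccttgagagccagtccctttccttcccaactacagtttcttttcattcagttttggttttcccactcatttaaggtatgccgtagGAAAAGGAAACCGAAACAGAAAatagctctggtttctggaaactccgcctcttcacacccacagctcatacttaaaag
Rsad2: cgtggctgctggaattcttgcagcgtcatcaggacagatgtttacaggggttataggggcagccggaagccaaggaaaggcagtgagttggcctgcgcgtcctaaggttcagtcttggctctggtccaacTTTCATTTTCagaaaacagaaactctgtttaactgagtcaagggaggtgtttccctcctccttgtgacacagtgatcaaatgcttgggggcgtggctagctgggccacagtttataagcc
Ifit1: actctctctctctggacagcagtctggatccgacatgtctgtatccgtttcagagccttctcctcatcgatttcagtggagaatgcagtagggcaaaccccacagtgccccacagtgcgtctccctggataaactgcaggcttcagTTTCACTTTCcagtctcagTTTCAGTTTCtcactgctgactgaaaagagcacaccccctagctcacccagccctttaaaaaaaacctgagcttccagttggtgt
Ifit3: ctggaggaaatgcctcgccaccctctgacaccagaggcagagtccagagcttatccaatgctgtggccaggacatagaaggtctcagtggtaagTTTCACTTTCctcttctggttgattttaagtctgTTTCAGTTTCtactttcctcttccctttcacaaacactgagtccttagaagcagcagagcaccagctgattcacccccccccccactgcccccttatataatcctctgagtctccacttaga
Overlapping matches number 3 in Isg15, and there are 2 in Ifit1, 2 in Ifit3 and 1 in Rsad2. These letters stand in 2.977% of all promoters of this length. They stand in 15 of 45 promoters of the interferon-stimulated list (33.33%, 38 genes matched) and in 9 of 16 of a list of guanylate-binding and interferon gamma genes (56.25%, 15 genes matched). Among promoters of interferon-stimulated genes whose 3 values lay below the 9, 13 of 37 (35.14%) hold them, close to the share of the whole list.

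Genes that make or relay interferon were lower to a smaller degree. In the signalling list 13 of 23 lay below (56.5%, against 5.52% of all genes) and none above, with a median difference of -0.36. Irf7, the factor that amplifies interferon production, stood at 115, 112 and 128 CPM against 181 to 811 CPM with a median of 279 CPM. Tlr9, the endosomal receptor for CpG DNA, stood at 12.4, 27.9 and 37.5 CPM against 49.3 to 82.1 CPM with a median of 60.8 CPM. For Tlr9 young replicate 6 lay well below every other library. The differences of the transcription factors Stat2 and Irf1 were -0.68 and -0.55. Not all upstream genes followed. The adaptor gene Mavs, the transcription factor gene Irf3 and Tmem173, which encodes STING, overlapped, with differences of 0.02, 0.07 and -0.05. They were named after their values were seen. Ifnb1 itself did not pass the filter on low counts.

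Genes driven mainly by interferon gamma include the guanylate-binding proteins that attack vacuoles of pathogens. In this list 14 of 22 lay below (63.6%, against 5.52% of all genes) and none above, with a median difference of -1.08. Iigp1, an immunity-related GTPase, stood at 0.809, 1.53 and 3.29 CPM against 4.2 to 20.9 CPM with a median of 9.39 CPM. Cxcl10, a chemokine for T cells, stood at 8.29, 14 and 23.8 CPM against 31.7 to 110.0 CPM with a median of 50.1 CPM. Gbp2 stood at 28.3, 49 and 65.2 CPM against 91.4 to 337 CPM with a median of 129 CPM, and the differences of Gbp5 and Gbp7 were -1.50 and -1.27. Guanylate-binding genes resemble each other in sequence, so counts of single members are uncertain. For Iigp1, Cxcl10 and Gbp2 the 3 libraries were ordered young 6, old 2, old 3 from low to high, and all 3 lay below the 9. Cd274, the inhibitory ligand PD-L1, stood at 26.4, 27.4 and 36.8 CPM against 41 to 98.1 CPM with a median of 59.4 CPM. Psmb8, an immunoproteasome subunit, overlapped at 114, 106 and 86.6 CPM against 95 to 186 CPM.

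Antigen presentation genes were lower as well. For MHC class I, 9 of 18 lay below (50%, against 5.52% of all genes) and none above, with a median difference of -0.34. Nlrc5, the transactivator of class I genes, stood at 33, 39.7 and 43.8 CPM against 51.6 to 93.1 CPM with a median of 63.5 CPM, and Tap1, a peptide transporter subunit, stood at 115, 133 and 119 CPM against 135 to 338 CPM with a median of 172 CPM. The non-classical genes H2-T24 and H2-T23 had differences of -1.13 and -0.59 and the loading factor Tapbp one of -0.42. H2 genes resemble each other in sequence, so counts of single members are uncertain. For MHC class II, 6 of 13 lay below (46.2%, against the same 5.52%) and none above, with a median difference of -0.91.

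Class II molecules show peptides to CD4 T cells. H2-Eb1 stood at 61.9, 68.5 and 108 CPM against 149.8 to 612 CPM with a median of 207 CPM, 3.02-fold lower. Cd74, the invariant chain, stood at 434, 464 and 704 CPM against 924 to 2971 CPM with a median of 1224 CPM. H2-Ab1 stood at 83.3, 106 and 151 CPM against 195 to 713 CPM with a median of 287 CPM, and H2-Aa had a difference of -1.34. Old replicate 6 was the highest library for 7 of the 13 genes, H2-Eb1 among them, and it also held counts of T-cell genes, whose part in the class II values was not tested. Without it 6 genes lay below as well. Cd86, a costimulatory ligand, stood at 16.3, 19.9 and 21.2 CPM against 29.1 to 57.4 CPM with a median of 41.2 CPM. Markers of dendritic cells, which also carry class II, were lower in part too. In this list 2 of 6 tested markers (of 11) lay below (33.3%, against 5.52% of all genes). Batf3 was among these 2, at 2.26, 3.35 and 4.09 CPM against 4.2 to 7.97 CPM. The mean log2 CPM of the 6 was 0.40, 1.42 and 1.17 against 1.48 to 2.31. The part of dendritic cells in the class II values was not tested.

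**Figure D3:**
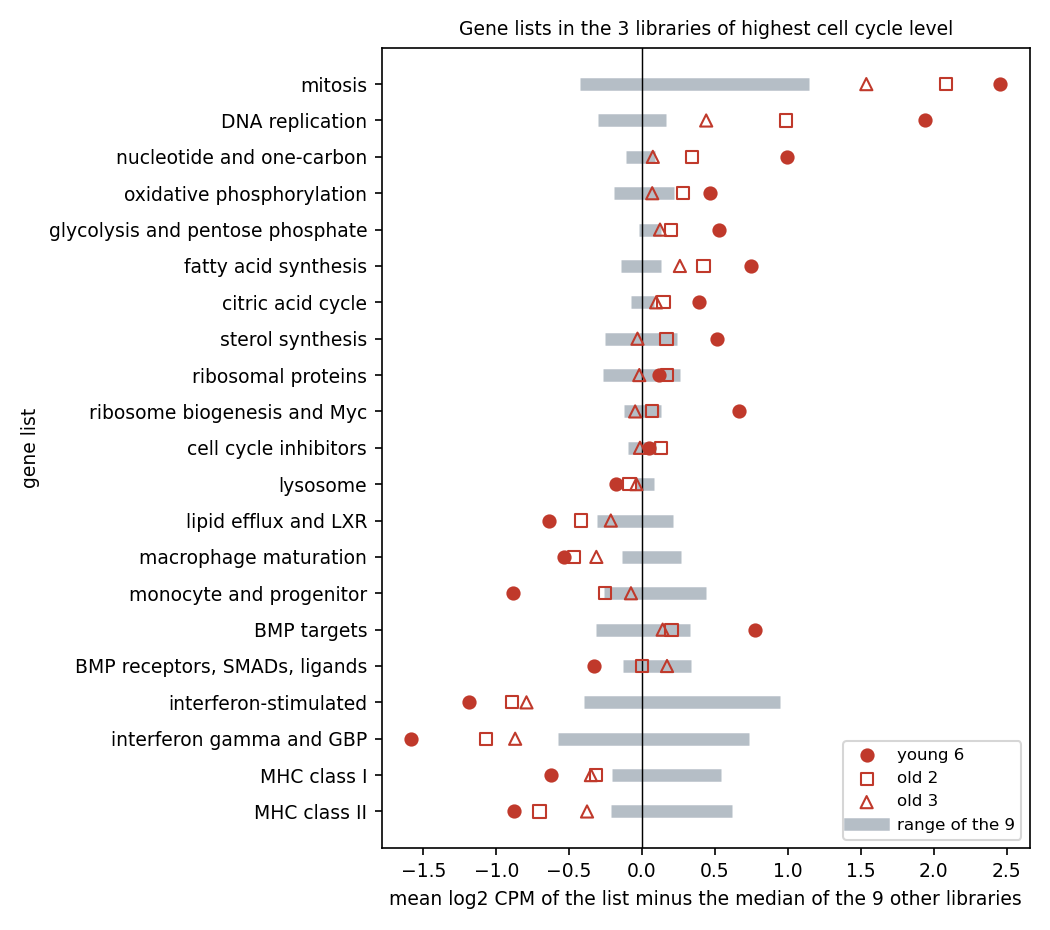
Mean log2 CPM of 21 gene lists in each of the 3 libraries (filled circle young 6, open square old 2, open triangle old 3) minus the median of the other 9, with a bar for the range of the 9. All 3 symbols lie left of the bar for the interferon, MHC and maturation lists. They lie right of it for the mitosis, replication, fatty acid synthesis and citric acid cycle lists.

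Macrophage maturation genes leaned lower, with exceptions. Of 39 tested, 8 lay below (20.5%, against 5.52% of all genes), none above (7.08% of all genes) and 31 overlapped. The median difference was -0.39, against 0.0035 over all genes, and 29 differences were negative. Mean log2 CPM over the list was 7.36, 7.43 and 7.58 against 7.75 to 8.16, so this mean separated the groups although most single genes did not. Summed CPM over the list barely separated them. It reached 66574.1 CPM in the highest of the libraries studied and 66577.7 CPM in the lowest of the others. The count of genes below was 15 without old replicate 6 and 14 without old replicate 3. Fcgr1, the high-affinity IgG receptor and also an interferon-induced gene, stood at 108, 147 and 152 CPM against 245 to 860.3 CPM with a median of 380.5 CPM, 2.59-fold lower. Fcgr4 stood at 63.3, 80.3 and 97.2 CPM against 122 to 347 CPM with a median of 176 CPM. Siglec1, a sialic acid receptor that interferon also induces, stood at 93.9, 128 and 153 CPM against 188 to 391 CPM with a median of 250.2 CPM. These genes are thus known from both programmes.

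Other members were lower too. Apoe, the lipoprotein that carries cholesterol out of macrophages, stood at 3137, 4278 and 5569.7 CPM against 6080.1 to 13767 CPM with a median of 8982 CPM. Adgre1, the F4/80 antigen, stood at 745, 923 and 1115 CPM against 1117 to 1398 CPM with a median of 1371 CPM. Cd4, found on some macrophages, stood at 7.36, 5.02 and 8.09 CPM against 12.1 to 34.7 CPM with a median of 15.9 CPM. In Apoe and Adgre1 the 3 libraries were ordered young 6, old 2, old 3 from low to high, and for Adgre1 old replicate 3 lay just under the lowest of the 9. Csf1r, the M-CSF receptor, overlapped at 2524, 3538 and 3956 CPM against 3807 to 5371 CPM, and so did Lyz2, lysozyme, at 20504, 24808 and 30219 CPM against 28889 to 34972 CPM. Old replicate 3 lay inside the range of the 9 for both. Clec10a, a galactose lectin, had a difference of -1.54 with overlap, and Cx3cr1, the fractalkine receptor, was at 19.5, 12.7 and 10.2 CPM against 3.64 to 11.7 CPM, higher in difference (1.27) with overlap.

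Among 16 monocyte and progenitor genes past the filter (of 27), 1 lay above (6.25%), 3 below (18.75%) and 12 overlapped. The shares over all genes were 7.08% above and 5.52% below. The 1 above was Cd34, a sialomucin of blood stem and progenitor cells and of vessel walls. Cd34 (ENSMUSG00000016494, chr1:194938819-194961279, plus strand, GRCm38) stood at 59.7, 9.4 and 8.27 CPM against 0.181 to 2.96 CPM with a median of 0.468 CPM, 17-fold higher by the medians of log2 CPM with a prior count of 2. That difference was 4.09, and leaving out each library in turn gave 3.91 to 5.42. It was 5.42 without old replicate 3 and 5.33 without old replicate 2. In these 2 cases the median of the libraries left takes in the value of young replicate 6. The highest of the 9 were young replicate 2 at 2.96 CPM and young replicate 3 at 2.15 CPM, which also had the highest cell cycle levels among them. Mpo, Elane, Prtn3, Ctsg, Ms4a3, Myb, Gfi1 and Flt3, genes of granulocyte or early progenitors, did not pass the filter. Csf3r, the G-CSF receptor of granulocytes and monocytes, was lower at 39, 77.7 and 107 CPM against 115 to 179.8 CPM with a median of 154 CPM, and Irf8, a factor for monocyte fate, at 177, 286 and 302 CPM against 304 to 452 CPM with a median of 359 CPM. Of the 16 differences 12 were negative, with a median of -0.46.

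Lysosomal genes gave 10 below (22.7%) and 1 above (2.27%) of 44, with a median difference of -0.07. Over all genes 5.52% lay below and 7.08% above. Ctsc, a protease that activates granule enzymes, stood at 88.7, 104 and 109 CPM against 143 to 226 CPM with a median of 183 CPM. Ctsh, another cathepsin, stood at 202, 272 and 314 CPM against 364 to 570.2 CPM with a median of 422 CPM. Psap, the precursor of the saposins, stood at 16687, 24464 and 26812 CPM against 29151 to 36743 CPM with a median of 32564 CPM. The differences of Lgmn, legumain, and Smpd1, acid sphingomyelinase, were -0.43 and 0.30, the last being the 1 gene above. For Ctsc, Ctsh and Psap young replicate 6 was the lowest library and old replicate 3 the closest to the 9. In a list for lipid efflux and LXR targets 4 of 19 lay below (21.1%) and 1 above (5.26%). Pltp, phospholipid transfer protein, stood at 219, 530.5 and 649 CPM against 959 to 1924 CPM with a median of 1308 CPM. Abca1, the cholesterol exporter, stood at 33.9, 91.4 and 134 CPM against 136 to 205 CPM with a median of 168 CPM, and young replicate 6 was far below the others for both. Fabp5, a fatty acid carrier, had a difference of -0.49 and Lpcat3, which remodels phospholipids, one of 0.20.

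Genes of growth metabolism leaned higher, by less and furthest in young replicate 6. Mean log2 CPM over the nucleotide and one-carbon list was 5.51, 4.86 and 4.59 against 4.40 to 4.60. For glycolysis it was 7.36, 7.03 and 6.95 against 6.81 to 6.96, and for oxidative phosphorylation 6.95, 6.76 and 6.55 against 6.28 to 6.70. Old replicate 2 thus also lay above the 9 in these means, but not for sterol synthesis (5.08 against 4.66 to 5.16). In the list for nucleotide and one-carbon synthesis 5 of 27 lay above (18.5%, against 7.08% of all genes) and none below. The median difference of that list was 0.29. Phgdh, which opens the serine pathway, stood at 90.6, 59.1 and 30.3 CPM against 10.1 to 24.1 CPM with a median of 19.4 CPM, 3.03-fold higher. Psat1, the next enzyme of that pathway, stood at 78.4, 38.9 and 22.9 CPM against 15.3 to 22.8 CPM with a median of 18.8 CPM, where old replicate 3 lay just above the highest of the 9. Dctpp1, which clears dCTP, had a difference of 0.46, and the purine enzymes Adss and Paics had 0.22 and 0.15. Without old replicate 3 the count above was 15.

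For glycolysis and the pentose phosphate pathway 7 of 29 genes lay above (24.1%) and 1 below (3.45%), against 7.08% and 5.52% of all genes. Positive differences numbered 25, and the median was 0.23, against 0.0035 over all genes. Young replicate 6 was the highest library for 21 of the 29. Aldoc, an aldolase, stood at 56.7, 43.9 and 45.7 CPM against 21.1 to 35.2 CPM with a median of 25.4 CPM. Pkm, pyruvate kinase, stood at 2665, 1764 and 1407 CPM against 1098 to 1293 CPM with a median of 1208 CPM, and Pgk1, phosphoglycerate kinase, at 362, 223 and 199.97 CPM against 144 to 174 CPM with a median of 167 CPM. Tkt, transketolase, stood at 676, 627 and 527 CPM against 404 to 525 CPM with a median of 446 CPM. Old replicate 3 lay close to the highest of the 9 for Tkt. The 1 gene below was Pfkfb3, whose product makes the activator of phosphofructokinase, at 21.3, 23.8 and 31.2 CPM against 32.1 to 52.2 CPM with a median of 44 CPM. The count above was 14 without old replicate 3 and 11 without young replicate 5.

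Oxidative phosphorylation subunits encoded in the nucleus gave 4 of 54 above and none below, a share (7.41%) near the background of 7.08%. Yet 52 of 54 differences were positive, with a median of 0.27 against 0.0035 over all genes. Young replicate 6 was the highest of the 12 libraries for 46 of the 54. Within each age 37 of 54 lay above, against 13.8% of all genes. Without old replicate 3 the count above was 34, and without young replicate 5 it was 10. Ndufa9, a subunit of complex I, stood at 89.6, 73.1 and 67.2 CPM against 55.7 to 65.8 CPM with a median of 59.8 CPM. The other 3 were Ndufv1 of complex I, Sdha of complex II and Atp5a1 of the ATP synthase, with differences of 0.20, 0.16 and 0.14. None of 11 mitochondrially encoded genes lay above or below, with mt-Co1, a subunit of complex IV, at a difference of -0.21.

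In the tricarboxylic acid cycle list 4 of 20 lay above (20%, against 7.08% of all genes). Pcx, pyruvate carboxylase, which refills the cycle with oxaloacetate, was 2.83-fold higher at 16.8, 14.1 and 10.6 CPM against 3.12 to 8.35 CPM with a median of 4.94 CPM. Mdh1, Pdhb and Cs had smaller differences of 0.42, 0.20 and 0.20. For fatty acid synthesis 4 of 15 lay above, among them Me1, malic enzyme, at 16, 10.0 and 10.3 CPM against 3.35 to 6.36 CPM with a median of 3.88 CPM and Fasn, fatty acid synthase, at 168, 105 and 88.5 CPM against 67.1 to 84.6 CPM with a median of 80.5 CPM. The desaturase Scd2 had a difference of 0.51. The share above in the fatty acid list was 26.7%, against 7.08% of all genes. Sterol synthesis gave 1 of 24 above, Acat2, at 26.2, 13.6 and 10.3 CPM against 4.51 to 9.7 CPM with a median of 7.67 CPM.

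Genes for making proteins mostly overlapped. Of 33 ribosome biogenesis and Myc genes 1 lay above, the growth-related Mxd3 at 16.8, 10.1 and 5.2 CPM against 1.08 to 3.14 CPM with a median of 1.71 CPM, and Npm1, a nucleolar chaperone, overlapped with a difference of 0.08. Myc itself was at 25.4, 7.63 and 6.8 CPM against 5.04 to 14.7 CPM and overlapped, being the highest of all in young replicate 6 and below the median of the 9 in the old pair. Of 43 ribosomal protein genes 1 lay below, Rpl7, with a difference of -0.08 that turned to 0.014 when libraries were scaled by size alone. In a list for the unfolded protein response and ATF4, 1 of 26 lay above (Sesn2, 0.20) and 2 below, Hspa5, the chief chaperone of the endoplasmic reticulum, at -0.45 and Xbp1 at -0.19. These shares, 3.85% and 7.69%, were near those of all genes, 7.08% and 5.52%.

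BMP target genes split. Of 16 past the filter (of 30), 5 lay above (31.25%, against 7.08% of all genes) and none below (5.52% of all genes). Yet the median difference was -0.01 and 9 of 16 differences were negative. Id3, an inhibitor of basic helix-loop-helix factors, stood at 196, 59.3 and 58.4 CPM. The other young libraries held 8.72 to 19.3 CPM and the other old ones 24.4 to 27.3 CPM, so it was high in the 3 within each age. Smad6, a feedback inhibitor of BMP signals, stood at 25.4, 3.35 and 3.64 CPM against 0.606 to 2.18 CPM with a median of 1.31 CPM. Id1 stood at 38.6, 3.07 and 2.31 CPM against 0.353 to 1.4 CPM with a median of 1.14 CPM. In young replicate 6 these were many times above all other libraries, while old replicates 2 and 3 lay at a few CPM, nearer to the 9. Without old replicate 3 the differences went from 1.62 to 2.48 for Id3, from 1.42 to 2.74 for Smad6 and from 1.36 to 3.17 for Id1. The median of the libraries left then takes in the value of young replicate 6. Leaving out each library in turn gave 1.45 to 2.48 for Id3, 1.33 to 2.80 for Smad6 and 1.16 to 3.17 for Id1. The lowest Id1 difference was that without young replicate 6, and the highest Smad6 difference that without old replicate 2. Smad7 stood at 5.34, 4.0 and 3.91 CPM against 2.51 to 3.9 CPM with a median of 3.05 CPM, where old replicate 3 lay at the edge of the 9, and Bambi, a decoy receptor, had a difference of 0.24. Id2 was high in young replicate 6 only, at 226, 90.3 and 86 CPM against 68.4 to 112 CPM.

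**Figure D4:**
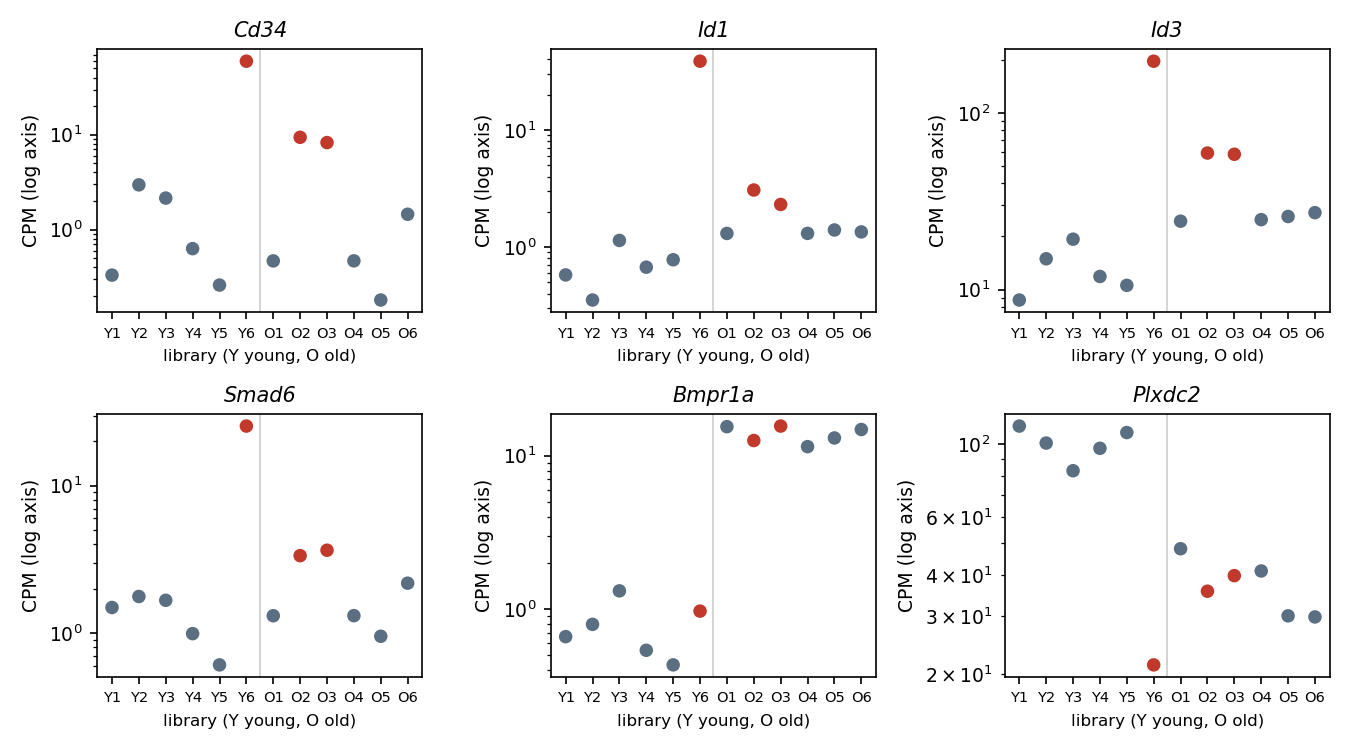
CPM (log axis) of Cd34, Id1, Id3, Smad6, Bmpr1a and Plxdc2 in each of 12 libraries, the 3 libraries in red. Cd34, Id1, Id3 and Smad6 are highest in young replicate 6, and Bmpr1a follows age, with 0.433 to 1.31 CPM in young libraries.

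Receptors and SMADs of the BMP and TGF-beta pathways were nearer to the background of 7.08% above and 5.52% below. In that list 1 of 22 lay above (4.55%) and 2 below (9.09%). The 1 above was Gdf15, a stress-induced ligand, at 128, 62.3 and 52.4 CPM against 36.9 to 51.4 CPM with a median of 46.6 CPM. Tgfbr2, the type II TGF-beta receptor, stood at 103, 143 and 163 CPM against 177 to 228 CPM, and Smad3, its effector, at 11.1, 16.1 and 16.3 CPM against 17.1 to 24.8 CPM with a median of 20.8 CPM. Smad1 and Smad5, the effectors of BMP receptors, overlapped with differences of 0.13 and -0.16. Bmpr1a, a type I BMP receptor that separates the ages in these libraries, stood at 0.970 CPM in young replicate 6 among other young values of 0.433 to 1.31 CPM, and at 12.6 and 15.6 CPM in the old pair among other old values of 11.5 to 15.5 CPM. It thus followed age and not the cell cycle level, and its difference of 3.17 was taken over 3 libraries of which 2 were old. Bmp4, Bmp6 and Bmp7 did not pass the filter.

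Over all genes 5.52% lay below and 7.08% above. Of 22 cytokine genes 4 lay below (18.2%) and 2 above (9.09%). Ccl5, a chemokine that interferon induces, had the largest difference below among them, at 3.44, 4.56 and 6.13 CPM against 8.09 to 55.4 CPM with a median of 20.3 CPM. Ccl6, Osm and Cxcl16 had differences of -0.59, -0.56 and -0.33. Cxcl14 was higher at 11.2, 8.05 and 10.3 CPM against 3.01 to 5.79 CPM with a median of 4.31 CPM, and Spp1, osteopontin, at 3425, 2621 and 2689 CPM against 1681 to 2353 CPM with a median of 2060.0 CPM. 

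Among the 9424 genes with a mean of at least 5 CPM, 707 lay above (7.5%) and 619 below (6.57%). Outside the cell cycle lists, the 10 largest differences upward were those of Cd34, Uchl1, Cdc25c, Neil3, Dmpk, Pimreg, Alox5, Pif1, Troap and Ckap2. The mean that admitted genes to this order includes the 3 libraries, and Cd34 and Dmpk stayed below 5 CPM in each of the 9, so the order is a description. Cdc25c, Neil3, Pimreg, Pif1, Troap and Ckap2 are known from mitosis or DNA repair and had differences of 2.50 to 2.92. Uchl1, a deubiquitinase of neurons and dividing cells, stood at 54.7, 32.8 and 19.5 CPM against 3.46 to 12.2 CPM with a median of 4.09 CPM. Dmpk, the kinase of myotonic dystrophy, stood at 97.2, 15.3 and 8.98 CPM against 1.12 to 4.16 CPM with a median of 2.2 CPM, led by young replicate 6. Alox5, which starts leukotriene synthesis, stood at 27.6, 15.4 and 7.78 CPM against 0.934 to 7.34 CPM with a median of 2.51 CPM, where old replicate 3 lay just above the 9. Downward the 10 were Ifi213, Iigp1, Cp, Ifi44, Ifit1bl1, Tmem176a, Ccl5, Mx1, Ifit3b and Gm4951, most of them interferon-inducible. Ifi213, a member of the interferon-induced p200 family, stood at 0.890, 0.651 and 1.69 CPM against 4.29 to 20.7 CPM with a median of 7.64 CPM. The members of that family resemble each other, so its counts are uncertain. Cp, ceruloplasmin, the copper ferroxidase, stood at 0.970, 3.44 and 3.78 CPM against 6.79 to 33.7 CPM with a median of 17.5 CPM, and Tmem176a, a membrane protein of dendritic cells and macrophages, at 7.32, 21.5 and 34.4 CPM against 54.4 to 173 CPM with a median of 96.9 CPM.

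A question that the choice of the 3 libraries did not settle is whether the same genes followed the cell cycle level among the 9 libraries left. In these 9 (5 young, 4 old) the level ran from 3.99 to 5.70, and each gene was given a slope on it with age as a second term. Slopes are log2 units of a gene per log2 unit of the level. Of 12744 genes 80 rose with the level (0.628%) and 22 fell (0.173%) at an adjusted p below 0.05 in edgeR's quasi-likelihood test. At an unadjusted p below 0.05 there were 625 higher (4.9%) and 704 lower (5.52%), and 50.5% of all slopes were positive. These differences and slopes share the 9 libraries, so they are set side by side and their likeness is not scored. The calls rested on young replicate 2, the highest of the 9: without it no gene passed in either direction. Without young replicate 5 there were 49 and 2, and without old replicate 6 there were 136 and 127. The count of falling genes was also 12 without young replicate 1, 7 without young replicate 3 and 11 without old replicate 5. No gene passed when the level was taken from the replication list.

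Of the 80 genes that rose, 36 belong to the cell cycle lists, 10 of them the genes that make up the level. The other 44 were led by known division genes. Spag5, a spindle protein, rose by 1.34 (SE 0.12, edgeR adjusted p = 3.0e-04), Ncapd2, a condensin subunit, by 1.04 (SE 0.10, edgeR adjusted p = 3.0e-04) and Kifc1, a mitotic kinesin, by 1.03 (SE 0.10, edgeR adjusted p = 4.0e-04). Ckap2l, Cdkn3, Pimreg, Cdc25b, Kif14, Stmn1 and Sgo1, all linked to mitosis or microtubules, had slopes of 0.68 to 1.73. In the mitosis list 26 of 41 rose (DESeq2 35, voom 29). No gene of the replication list passed, and its median slope was 0.04, unlike its difference of 1.05 in the 3 libraries. Its slopes were positive for 22 genes and negative for 18, with 4 and 1 at an unadjusted p below 0.05 in edgeR's test, and DESeq2 and voom also called none. None of the calls of Spag5, Ncapd2 and Kifc1 held without young replicate 2, where their edgeR adjusted p was 0.075 to 0.19.

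No called gene of the 22 that fell belongs to the cell cycle lists. The 10 of lowest p with at least 5 CPM were Fos, Ccl5, Slc15a3, Pik3ap1, Gch1, Rtp4, Ifi204, Cd274, Helz2 and Nrp1. Ccl5 (ENSMUSG00000035042, chr11:83525778-83530518, minus strand, GRCm38) fell with a slope of -1.89 (SE 0.26, edgeR adjusted p = 0.007). Cd274 had a slope of -0.83 (SE 0.15, edgeR adjusted p = 0.017). As background, Ccl5, Rtp4, Ifi204, Cd274 and Helz2 are known interferon-inducible genes. Rtp4 had a slope of -0.74 (SE 0.13, edgeR adjusted p = 0.015), and Ifi204 one of -0.82 (SE 0.14, edgeR adjusted p = 0.016). Fos, an immediate early factor, had a slope of -0.98 (SE 0.13, edgeR adjusted p = 0.0024), although its 3 values of 33.4, 18.8 and 24.9 CPM overlapped the 9 at 21.3 to 66.8 CPM. Without young replicate 2 the edgeR adjusted p of these 5 was 0.11 to 0.34. Rtp4, Ifi204 and Cd274 also missed the threshold without young replicate 5 (0.091, 0.087 and 0.11), and Ifi204 and Cd274 without young replicate 3 (0.052 and 0.055). Without the age term Ccl5 had an edgeR adjusted p of 0.27.

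The interferon-stimulated list as a whole leaned down among the 9. All 47 slopes were negative, against 49.5% of all genes, 44 had an unadjusted p below 0.05, against 5.52% of all genes in this direction, and 1, Rtp4, passed the adjusted threshold in edgeR's test. DESeq2 called 22 of them and voom 1, and edgeR called 0 without young replicate 2, 0 without young replicate 5 and 6 without old replicate 6. The median slope was -0.80, and the range was -1.72 to -0.06. Mx1 had a slope of -1.45 (SE 0.42, edgeR adjusted p = 0.25), so single members were imprecise. The median slope was -0.47 without young replicate 5, the library of highest interferon RNA, and -1.21 without young replicate 2, and all 47 stayed negative in each of the 9 fits that left out 1 library. Members of a list are measured in the same 9 libraries and move together, so these counts are not independent observations. For the interferon gamma list all 22 slopes were negative with a median of -0.79, for MHC class I all 18 with a median of -0.43, and for MHC class II 10 of 13 with a median of -0.40. DESeq2 called 7, 3 and 0 of these lower, and edgeR 1 (Cd274), 0 and 0.

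Metabolic lists had slopes on both sides of 0 among the 9. Oxidative phosphorylation had 21 positive and 33 negative slopes with a median of -0.02, and glycolysis 12 and 17 with a median of -0.02. Nucleotide synthesis genes had a median slope of -0.06. No gene of these 3 lists passed in edgeR's test. At an unadjusted p below 0.05 it gave 0 higher and 1 lower for oxidative phosphorylation, 1 and 4 for glycolysis, and 0 and 3 for nucleotide synthesis, and DESeq2 called 1 gene of oxidative phosphorylation lower. Maturation genes leaned the same way as in the 3 libraries, with 31 of 39 slopes negative and a median of -0.17, and none passed in edgeR's test, where 1 was higher and 7 lower at an unadjusted p below 0.05, while DESeq2 called 2 lower. Fcgr1 had a slope of -1.10 (SE 0.33, edgeR adjusted p = 0.26) and Fcgr4 one of -0.91 (SE 0.20, edgeR adjusted p = 0.092). BMP targets had 6 positive and 10 negative slopes, with 1 in each direction at an unadjusted p below 0.05 and no call in edgeR's test, DESeq2 or voom. Id3 had a slope of 0.53 (SE 0.20, edgeR adjusted p = 0.35), Id1 one of -0.27 (SE 0.45, edgeR adjusted p = 0.91), and Cd34 one of 2.20 (SE 0.71, edgeR adjusted p = 0.25). None of these 3 passed the threshold.

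**Figure D5:**
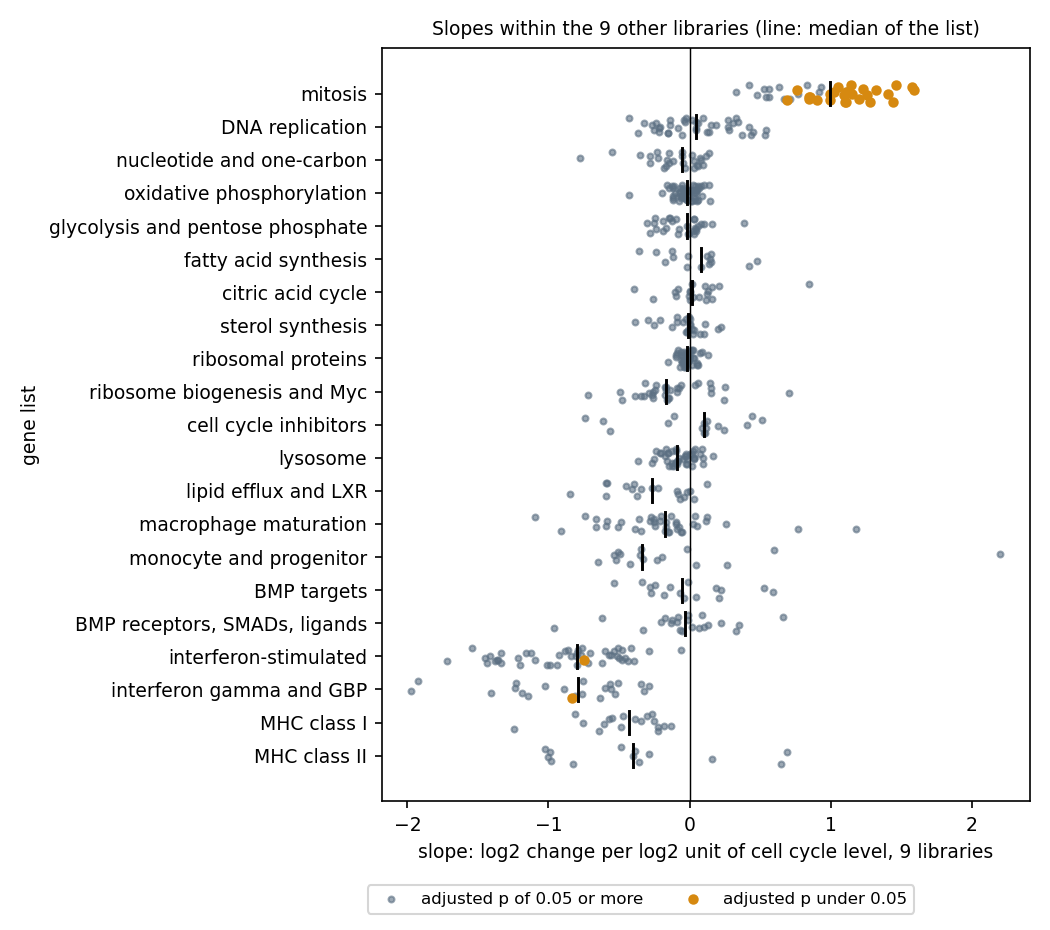
Slope of each gene on the cell cycle level within the other 9 libraries (log2 per log2), by gene list, with a line at each median and orange points for an edgeR adjusted p below 0.05. All 47 interferon-stimulated slopes lie below 0, and oxidative phosphorylation centres near 0.

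Leaving the 3 libraries out also changes the comparison of the ages. The 3 were picked by measured levels, so values and p-values in the 9 depend on that choice and are no separate test of age. With all 12 libraries 2 genes, Bmpr1a and Gdf3, were higher in old (0.0158%) and none (0%) lower in edgeR's quasi-likelihood test, and 690 genes had an unadjusted p below 0.05 (5.47%). DESeq2 called 5 genes lower. With the 9 libraries alone 1 gene, Bmpr1a, was higher (0.00785%) and 2 lower (0.0157%), Plxdc2 and, named after its value was seen, Vill (-0.66, SE 0.095, edgeR adjusted p = 0.042), and 2302 had an unadjusted p below 0.05 (18.1%). Plxdc2, a membrane receptor of the plexin domain family, was lower in the old than in the young libraries of the 9. The difference was 1.43 on the log2 scale (SE 0.15, edgeR adjusted p = 0.0058). In the 12 it had a value of -1.22 (edgeR adjusted p = 0.77; DESeq2 gave -1.22 with an adjusted p = 0.032), where young replicate 6 (21.3 CPM) lay below young replicates 1 to 5 (82.9 to 113 CPM). Gdf3, a ligand of the TGF-beta family, had 1.07 in the 12 (SE 0.13, edgeR adjusted p = 0.011) and 0.96 in the 9 (SE 0.15, edgeR adjusted p = 0.12), and its adjusted p in the 12 was 0.057 without young replicate 4. Leaving out young replicate 6 alone gave Plxdc2 an edgeR adjusted p = 1.4e-04. The count of genes higher in old was 5 without young replicate 3 and 1 without young replicate 4. For Id3 the old minus young value was -0.25 in the 12 and 0.97 in the 9, a change of sign, and neither passed.

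Markers of other cell types were looked at beside these results. Neutrophil markers gave 9 of 14 past the filter, with 1 above (Mmp8, at 24.8 to 28.4 CPM against 5.29 to 24.5 CPM) and 1 below (Csf3r), and Ly6g, the defining surface marker, had 4 counts over all 12 libraries. Of the 9 differences 8 were negative, with a median of -0.78, and the mean log2 CPM of these markers was 0.74, 2.14 and 2.04 against 0.94 to 3.19. None of the tested markers of osteoclasts (7), B cells (2), T and NK cells (1), mast cells (4), erythroid cells (2) or stroma (3) lay above or below. The most abundant of them, Atp6v0d2, Blnk, Il7r, Kit, Pf4 and Kdr, overlapped with differences of -0.84, 0.00, -0.30, -0.11, 0.44 and -0.62. The B-cell lineage gene Pax5 was at or near 0 throughout, and the T-cell genes Cd8a (243 counts, 12.6 CPM), Cd3g (98 counts) and Trac (68 counts) gave counts in old replicate 6 alone, with the other 11 libraries at 0. Cd3d had up to 0.093 CPM in the 3 libraries and up to 4.56 CPM in the 9, with 5 libraries at 0. The tested stromal markers leaned lower, with all 3 differences negative and a mean log2 CPM of 0.76, 0.78 and 1.11 against 1.13 to 1.83, while Col3a1 and Lum were at 0 in all 12 libraries. The part of these cell types in the values above was not tested.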

How the data were processed

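The labels' protocols give TRIzol for extraction and, for libraries, the TruSeq RNA v2 kit, which keeps no strand. The authors deposited whole read counts per gene, made with featureCounts 1.6.0 against Ensembl release 100 of GRCm38, with no option for strand, read pairs or multiply aligned reads, per the file headers. The submitters' processing notes also name STAR, FastQC and mm10 without versions. Since no source used here says if mates were counted apart, counts are taken as alignment records. Reads of overlapping genes cannot be told apart.

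A reference table gave symbols to 55141 of 55401 gene IDs, and 0 columns were left unused. The chi-square per gene between libraries of a group was 4.82 to 161, highest for pairs with young replicate 6. All 12 libraries were kept. CPM here are the counts scaled with TMM factors of edgeR 4.0.16 in R 4.3.3. Levels in log2 used a prior count of 2. The low-count filter of edgeR left 12620 genes (12744 in the 9 libraries) and 99.91% of counts. A gene was called above or below where all 3 values lay outside the range of the 9, and a difference is of medians on log2 CPM. The slope on the cell cycle level within the 9 was fitted with age by edgeR's quasi-likelihood F test (robust, 6 residual degrees of freedom), two-sided, with Benjamini-Hochberg adjustment over all genes and a threshold of 0.05. Its biological coefficient of variation was 11.89% and its median standard error 0.14. Steps were tested on simulated data. DESeq2 1.42.0, limma 3.58.1 (voom), other scalings, filters and levels, and each library left out were alternatives, as was a replicate block. Leaving out young replicates 2 and 3 together was chosen after seeing the data. Promoter motifs were searched with Python 3.11.15 in RefSeq stretches, and figures drawn with matplotlib 3.10.9.

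The members and the 34 gene lists were chosen with earlier results of these data known. Genes named were the 10 of the rule, per list up to 5 members of at least 5 CPM whose groups did not overlap (else the member of highest mean CPM), the 10 largest such differences in each direction outside the cell cycle lists, the 10 slopes of lowest p in each direction, and Bmpr1a, Gdf3, Id1, Id2, Id3, Smad6, Smad7, Plxdc2, Cd4, Marco, Cpne8, Adgre1, Csf1r, Lyz2, Itgam, Cd68, Cdkn1a and Myc. Of these, Marco and Cpne8 had differences of -0.88 and 1.26 with overlap. Named after their values were seen were Pcna, Isg15, Rsad2, Ifit1, Psmb8, Mavs, Irf3, Tmem173, Cx3cr1, Clec10a, Smad1, Smad5, Cxcl16, Mxd3 and the genes given as overlapping or as not past the filter. Some genes that this rule takes are not reported here.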

Additional observations from a re-analysis of the deposited data

Results flagged for a closer look

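Within each age group of 6, every measure was checked for a single library far from the rest, by the gap to its nearest neighbour over the whole range on log2(CPM + 0.1), set against Dixon's 95% critical value. Over 99 measures (95 genes) in both ages this marked 33 of 198 sets, all 33 for young replicate 6 and none for an old library. Chance marks about 1 in 20 groups, genes of a library move together, and the genes were chosen with their values known, so the number is no test.

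Young replicate 6 was the highest young library for 18 of them. Cell cycle genes were Cdk1 at 152 CPM (other young libraries 30.6 to 55.3 CPM), Tk1 at 125 CPM (17.4 to 23.8 CPM), Rrm2 at 107 CPM (13.6 to 17 CPM) and Cdkn2d at 64.4 CPM (21.9 to 30.6 CPM). In metabolism they were Pkm at 2665 CPM (1149 to 1293 CPM), Pgk1 at 362 CPM (166 to 174 CPM), Phgdh at 90.6 CPM (19.2 to 24.1 CPM) and Psat1 at 78.4 CPM (17.1 to 22.8 CPM). Lipid and respiratory genes were Fasn at 168 CPM (74.3 to 84.6 CPM), Acat2 at 26.2 CPM (7.67 to 9.7 CPM) and Ndufa9 at 89.6 CPM (59.8 to 65.8 CPM). BMP-related genes were Id1 at 38.6 CPM (0.353 to 1.14 CPM), Id2 at 226 CPM (68.4 to 94.1 CPM), Id3 at 196 CPM (8.72 to 19.3 CPM), Smad6 at 25.4 CPM (0.606 to 1.77 CPM) and Gdf15 at 128 CPM (38.9 to 51.4 CPM). Dmpk was at 97.2 CPM (1.12 to 4.16 CPM), and the share of multiply aligned records was 14.2% (12.1% to 12.6%).

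It was the lowest young library for the other 15. Macrophage and monocyte genes among them were Csf3r at 39 CPM (115 to 179.8 CPM), Irf8 at 177 CPM (343 to 452 CPM), Adgre1 at 745 CPM (1117 to 1371 CPM), Csf1r at 2524 CPM (4421 to 5371 CPM), Lyz2 at 20504 CPM (29421 to 34972 CPM) and Psap at 16687 CPM (30062 to 36743 CPM). Lipid transporters were Pltp at 219 CPM (959 to 1924 CPM) and Abca1 at 33.9 CPM (136 to 168 CPM). The remaining ones were Plxdc2 at 21.3 CPM (82.9 to 113 CPM), Tlr9 at 12.4 CPM (49.3 to 70.2 CPM), Tgfbr2 at 103 CPM (177 to 226 CPM), Smad3 at 11.1 CPM (17.1 to 22.1 CPM), Rpl7 at 474 CPM (579.5 to 592 CPM), Cp at 0.970 CPM (10.2 to 33.7 CPM) and Tmem176a at 7.32 CPM (54.8 to 173 CPM).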

How the results depend on the processing

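Of the genes set in the 3 libraries beside the 9, 894 lay above and 697 below. Scaling by library size alone gave 1443 and 412, each age on its own 1741 and 1506, and leaving out 1 library 904 to 1918 and 706 to 1571. The interferon-stimulated count below, 40, stayed at 39 to 43 in all alternatives run. Of single differences of medians, 2681 values kept within the spread between libraries, 87 moved by more and 1 changed sign (Rpl7, 0.014 with library size alone). Some of the 2681 could not move. Ranking by Mki67, Top2a and Cdk1 or by the replication list kept the same 3 libraries, so counts and differences there were identical. The setting with each age on its own reused the main differences. Slopes within the 9 were less stable. Against 80 rising and 22 falling genes, DESeq2 called 148 and 149, voom 97 and 22, a fit without the age term 165 and 65, and fits without 1 library 0 to 136 and 0 to 127. The count falling was 49 with no low-count filter and 5 with the level from Mki67, Top2a and Cdk1. Both counts were 0 with the level from the replication list and 0 with young replicates 2 and 3 left out together. In all 12 libraries they were 2009 and 1718, which uses the libraries the rule chose. With the replication list as level, slopes changed sign for Cdc25b (-0.14), Fos (0.19), Slc15a3 (0.28), Nrp1 (0.12), Knstrn (-0.20) and Bub1b (-0.079). For old against young, with 2 genes higher and 0 lower, DESeq2 called 6 and 5, no low-count filter gave 1 lower, the 9 libraries gave 1 and 2, adding the level as a covariate 4 and 1, and leaving out 1 library 1 to 5 and 0 to 1. The cause of these changes was not tested. The replicate block gave 4 higher. Replicate numbers did not pair the samples: same-numbered young and old libraries correlated at -0.17 to 0.39, and only numbers 1 and 4 correlated best with their own. The old minus young value of Id3 turned positive with the block (0.94), with the 9 libraries (0.97), with the covariate (1.06) and without young replicate 6 (range without 1 library -0.46 to 1.49). At the median standard error of a slope, 0.14, small slopes could not be called with 9 libraries.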
